A study of Mus musculus with 2 samples.

Results

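The genes described here are 10 feedback genes of the ERK pathway: the Sprouty genes Spry1, Spry2 and Spry4, the related Spred1 and Spred2, the phosphatase genes Dusp4, Dusp5 and Dusp6, and the transcription factor genes Etv4 and Etv5. They were taken by symbol from the 12707 genes of the deposited table, and all 10 were found. The list was selected on earlier results from these same libraries (their deposited expression values), so the values below are descriptions and carry no test. The data are RNA-seq of live CD45-negative cells sorted from Py8119 tumours, with 1 library from tumours of Mtdh wild-type mice (the WT-host library) and 1 from tumours of Mtdh knockout mice (the KO-host library). Py8119 is a mouse mammary tumour line of mesenchymal character. The injected tumour cells were wild type for Mtdh in both groups, so the genotype differs in the host alone. The sources used here do not give mouse strain, age, time of harvest or the number of mice behind each library. With 1 library a group there is no replicate error, and each comparison is of these libraries rather than of the host genotypes.

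Growth factor receptors signal through RAS to the kinases RAF, MEK and ERK, and active ERK switches on a set of genes that damp the same pathway. Sprouty proteins block the step from receptor to RAS, and SPRED proteins bring neurofibromin, which switches RAS off, to the membrane. DUSP proteins of this group remove the activating phosphates from ERK, DUSP4 and DUSP5 in the nucleus and DUSP6 in the cytoplasm. ETV4 and ETV5 are ETS transcription factors of the PEA3 group whose genes are induced by ERK. Because ERK induces them, transcripts of these genes are widely used as a readout of ERK output in tumour cells.

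The promoters of Dusp5 and Spry1, which differed by 2-fold or more, and of Dusp6 as the close relative that differed little, are shown before the values. RefSeq promoters (GRCm38.p6, 250 bases before to 50 after the start, 5′ to 3′ on the gene's strand) matched 7 of the 10 members. The Spry4, Dusp4 and Etv4 promoters were not analysed here, so the member that differed most, Dusp4, is missing. Capitals mark a match to the CArG box, the site bound by serum response factor (SRF), which works with ETS partners that ERK activates. The windows are chr19:53528895-53529194 (+ strand) for Dusp5, chr10:99262981-99263280 (+ strand) for Dusp6 and chr3:37639697-37639996 (+ strand) for Spry1.
Dusp5: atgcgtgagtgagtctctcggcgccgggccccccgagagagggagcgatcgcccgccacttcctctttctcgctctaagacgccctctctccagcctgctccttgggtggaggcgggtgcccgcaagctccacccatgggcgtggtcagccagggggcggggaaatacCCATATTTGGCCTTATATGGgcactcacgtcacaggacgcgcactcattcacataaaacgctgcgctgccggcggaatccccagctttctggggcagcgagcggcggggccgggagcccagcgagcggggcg
Dusp6: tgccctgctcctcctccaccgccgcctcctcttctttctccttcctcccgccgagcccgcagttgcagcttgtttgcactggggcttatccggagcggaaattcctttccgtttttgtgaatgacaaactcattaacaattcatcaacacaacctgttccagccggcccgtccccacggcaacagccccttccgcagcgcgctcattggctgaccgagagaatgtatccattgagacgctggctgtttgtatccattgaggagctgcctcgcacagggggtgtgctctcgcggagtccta
Spry1: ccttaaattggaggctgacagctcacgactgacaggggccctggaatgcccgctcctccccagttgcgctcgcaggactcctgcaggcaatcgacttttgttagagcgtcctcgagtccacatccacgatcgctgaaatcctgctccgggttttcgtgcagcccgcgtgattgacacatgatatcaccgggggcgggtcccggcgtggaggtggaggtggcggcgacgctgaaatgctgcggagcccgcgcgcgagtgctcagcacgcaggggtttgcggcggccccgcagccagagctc

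The Dusp5 window held a pair of CArG boxes end to end, CCATATTTGG from -82 to -73 and CCTTATATGG from -72 to -63, counted from the start site. Of 32851 promoter windows of this length, 1.63% held a CArG box and 6, or 0.0183%, held 2 or more. The windows of the other 6 matched members held none. Of the immediate early and dissociation genes described below, 16 had a promoter window and 2 of these, Egr2 and Zfp36, held a CArG box within it. Of the relatives of the members described below, 9 had a window and 0 held a CArG box. Of the other ERK-induced genes, 8 had a window and 0 held one. Sites further from the start were not searched, so a window without a match does not mean a gene without a CArG box. Both strands were also searched for TGANTCA (AP-1, in 7.81% of windows), TGACGTCA (the cyclic AMP response element, 1.79%), CCGGAAG (ETS, 8.86%) and TGAATGNA (the CIC repressor, 3.82%). None of the members' matched windows held any of these strings. Other forms of the ETS, CIC and other sites were not searched, so the windows cannot be said to lack such sites. A match is a string of letters and not evidence of binding.

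The libraries differed at 3 of the 10 members by 2-fold or more. Dusp4 and Dusp5 were higher in the KO-host library and Spry1 was lower, while Spry2 was higher by a smaller amount. Spred1 and Spred2 were at the same level in both libraries within counting error, and Dusp6, Etv4, Etv5 and Spry4 differed by less than 1.5-fold. Members of 1 family therefore went different ways, and the summed reads of the 10 genes were nearly equal, at 1334 and 1377 reads per 1000000 recovered reads (RPM). Levels are given as reads recovered from the deposited values (26069375 for the WT-host library and 23381849 for the KO-host library), and ratios as RPM in the KO-host library over RPM in the WT-host library. Intervals are 95% exact intervals for counting error only.

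**Figure D1:**
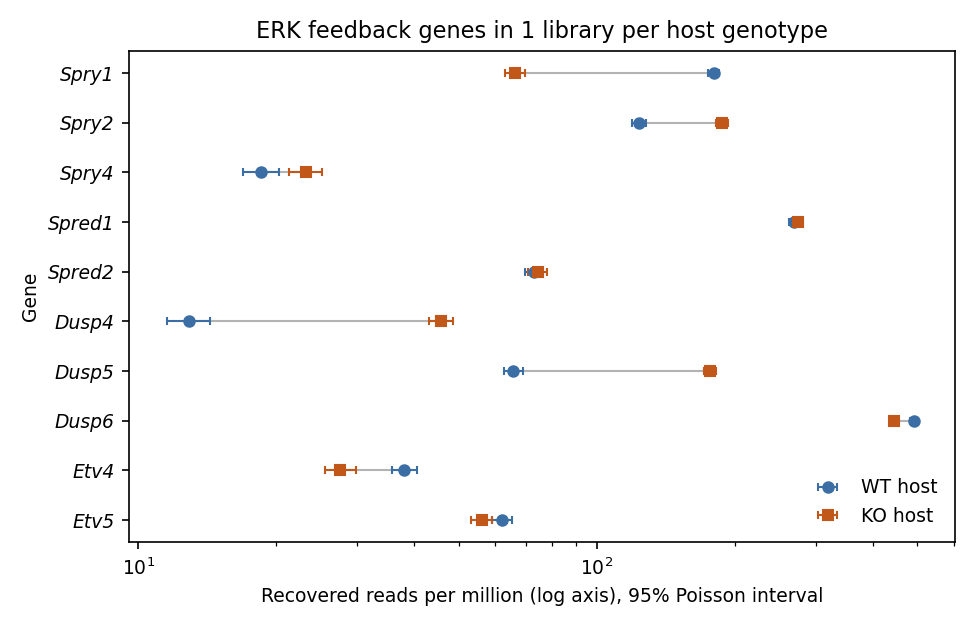
Recovered RPM for each of the 10 genes (log axis) in the WT-host library (circles) and the KO-host library (squares), with 95% Poisson intervals. Dusp4 and Dusp5 lie further right for the knockout host, Spry1 lies further left, and the Spred1 and Spred2 points overlap.

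Of the 10 members, 2 were higher by 2-fold or more, against a background of 8.40% of the 10652 genes with 100 or more reads over both libraries and reads in each. In the same genes 11.3% were lower by 2-fold or more, and 1 member was. All 10 members had 1000 or more reads, and among the 6613 genes at that depth the background was 2.84% higher and 3.92% lower. With so few members, these counts describe single genes and not the list. At 1.5-fold, 3 members were higher and 1 was lower, where 15.7% and 20.8% of genes with 100 or more reads were, and 8.94% and 12.4% of those with 1000 or more. The median log2 read ratio of the members was 0.03, beside -0.06 over all genes with 100 or more reads. On the deposited log2(FPKM + 1) scale, 9 members had a mean of 1 or more. Of these 9, 2 were higher by 1 or more and 1 was lower by 1 or more, against 2.31% and 2.64% of 6057 genes. They are the same 3 genes.

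**Figure D2:**
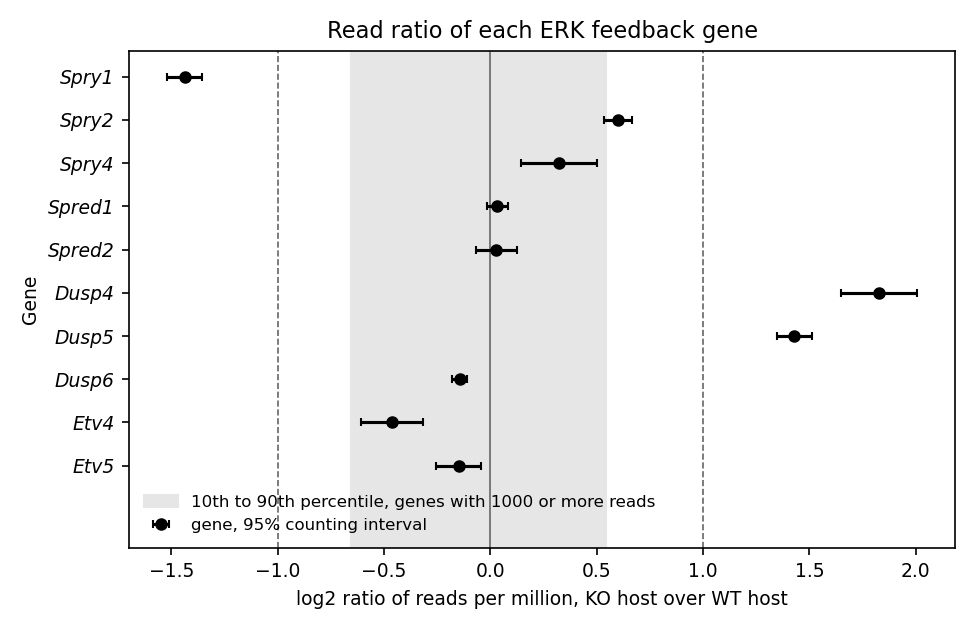
The log2 ratio of RPM, knockout host over wild-type host, for each gene with its 95% counting interval. The grey band spans the 10th to the 90th percentile of genes with 1000 or more reads (-0.66 to 0.55), and dashed lines mark 2-fold. Dusp4, Dusp5 and Spry1 lie beyond the dashed lines, and Spry2, at 0.60, lies just outside the band.

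The Sprouty genes, which act nearest the receptor, split. Spry1 (ENSMUSG00000037211, mm39 chromosome 3, 37694096 to 37698747, plus strand) had 4690 reads in the WT-host library and 1554 in the KO-host library. Its deposited log2 values were 5.31 and 3.93. It was 2.71-fold lower (95% counting interval 2.56 to 2.87), and 79 of the 6613 genes with 1000 or more reads had a ratio as low. A gene model on the opposite strand overlaps Spry1 by 710 bases, and reads of the pair cannot be told apart without strand. Spry2 (ENSMUSG00000022114, chromosome 14, 106129381 to 106134253, minus strand) had 3227 and 4381 reads, with deposited log2 values of 4.72 and 5.30. Its ratio was 1.51 (1.45 to 1.58), and 8.57% of genes at that depth had a ratio as high. Spry4 (ENSMUSG00000024427, chromosome 18, 38719300 to 38734468, minus strand) had 483 and 542 reads, a ratio of 1.25 (1.10 to 1.42), well inside the range of other genes.

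The make-up of the Sprouty reads does not depend on how the libraries are scaled. Spry1 gave 55.8% of the reads of the 3 genes in the WT-host library (exact 95% interval 54.8 to 56.9) and 24.0% in the other (23.0 to 25.1). Spry2 went from 38.4% to 67.6%. The ratio of Spry2 to Spry1 reads was 0.688 and 2.82, a 4.10-fold difference (3.81 to 4.41). Spry1 thus took most of the Sprouty reads in one library and Spry2 in the other. Summed over the 3 genes, the level was 322.2 and 277.0 RPM.

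The Spred genes were level. Spred1 (ENSMUSG00000027351, chromosome 2, 116951855 to 117012760, plus strand), mutated in Legius syndrome in humans, had 7003 and 6427 reads, which is 268.6 and 274.9 RPM. Its ratio was 1.02 (0.989 to 1.06). Spred2 (ENSMUSG00000045671, chromosome 11, 19874375 to 19974026, plus strand) had 1902 and 1740 reads, also a ratio of 1.02 (0.955 to 1.09). The ratio of Spred1 to Spred2 reads was 3.68 and 3.69. Counting error alone leaves room for a difference of under 10% in either gene, and the spread between replicates is unknown.

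**Figure D3:**
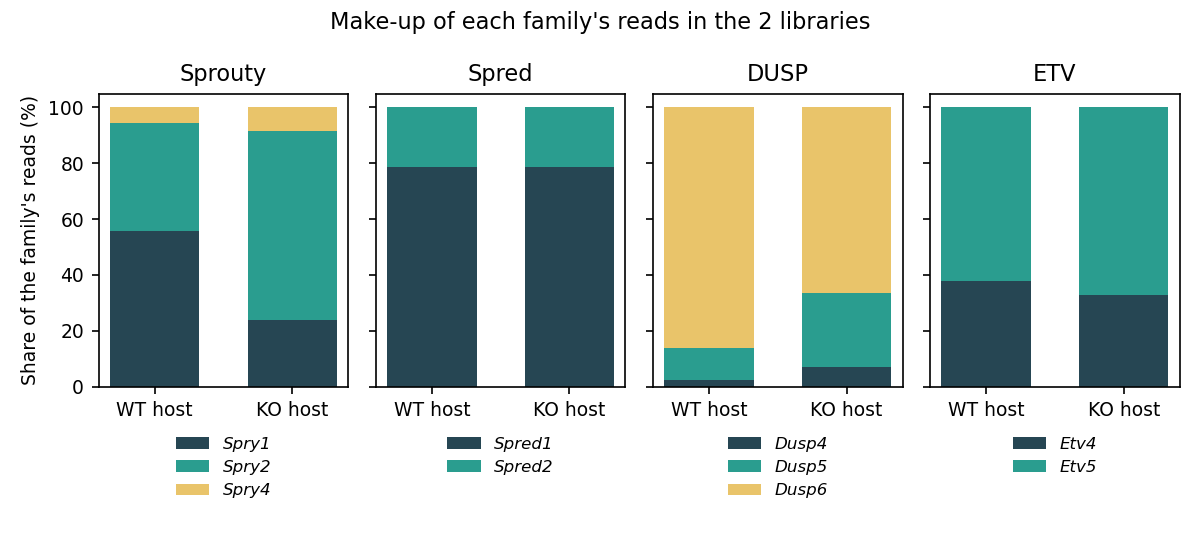
Share of each family's reads (in %) taken by each member in the WT-host and KO-host libraries. The Spry1 share falls from 55.8% to 24.0% between the bars and the Dusp6 share from 86.2% to 66.6%, while the Spred bars are alike.

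Among the 3 phosphatase members, Dusp4 and Dusp5 were higher and Dusp6 was not. Dusp4 (ENSMUSG00000031530, chromosome 8, 35274451 to 35287048, plus strand) encodes a phosphatase that also acts on JNK and p38. It had 336 reads in the WT-host library and 1068 in the KO-host library, with deposited log2 values of 1.02 and 2.21. The ratio was 3.54 (3.13 to 4.02), the largest of the 10 members, and 34 of the 6613 genes with 1000 or more reads had one as high. Dusp4 lies near the lower end of that depth range, where large ratios are more common: 11.3% of genes with 1000 to 3000 reads were past 2-fold in either direction.

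Dusp5 (ENSMUSG00000034765, chromosome 19, 53517540 to 53530862, plus strand), which is selective for ERK, had 1714 and 4135 reads. Its deposited log2 values were 2.57 and 3.84. The ratio was 2.69 (2.54 to 2.85), and 62 of the 6613 genes had one as high. In its own depth range, 3000 to 10000 reads, 3.18% of genes were past 2-fold. An antisense gene overlaps Dusp5 by 547 bases, with the same limit as for Spry1. Dusp5 is the gene whose promoter carries the pair of CArG boxes shown above.

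Dusp6 (ENSMUSG00000019960, chromosome 10, 99099093 to 99103351, plus strand), also selective for ERK, was the member with the most reads, 12810 and 10391. Its ratio of 0.904 (0.881 to 0.928) was inside the range of other genes. Dusp6 gave 86.2% of the reads of the 3 phosphatase genes in the WT-host library and 66.6% in the other. Dusp5 went from 11.5% to 26.5% and Dusp4 from 2.26% to 6.85%. The ratio of Dusp5 to Dusp6 reads was 0.134 and 0.398, a 2.97-fold difference (2.80 to 3.16), and that of Dusp4 to Dusp6 was 0.0262 and 0.103, a 3.92-fold difference (3.46 to 4.44). Summed over the family, the level was 570.0 and 666.9 RPM, since the gene with most of the reads hardly differed.

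The ETV factors were slightly lower, neither by 1.5-fold. Etv4 (ENSMUSG00000017724, chromosome 11, 101660568 to 101676197, minus strand) had 991 and 645 reads, a ratio of 0.726 (0.656 to 0.802), and 17.4% of genes with 1000 or more reads had one as low. Etv5 (ENSMUSG00000013089, chromosome 16, 22200059 to 22258469, minus strand) had 1621 and 1312 reads, a ratio of 0.902 (0.838 to 0.971), and 40.3% of those genes had one as low. These genes, like Dusp6, did not share the higher level of Dusp4 and Dusp5 in the KO-host library.

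Levels of different genes were compared per kilobase of exon, taking exon lengths from GENCODE M21 because the authors' FPKM divides by the whole gene span. The sources used here do not say whether intronic reads were counted, and the order depends on these exon models. In the WT-host library Dusp6 was highest at 156.9 RPM per kilobase. Spry1 (61.9), Spry2 (59.3), Spred1 (39.6) and Dusp5 (26.6) followed in RPM per kilobase, then Spred2 (15.8), Etv5 (15.2), Etv4 (12.2), Dusp4 (4.70) and Spry4 (3.90). Counting intervals overlapped between Spry1 and Spry2, between Spred2 and Etv5, and between Dusp4 and Spry4. In the KO-host library Dusp6 (141.9) was again highest and Spry4 (4.87) lowest. Spry2 (89.8) and Dusp5 (71.5) stood above Spred1 (40.5), Spry1 (22.9) was below it, and Dusp4 (16.7) had an interval overlapping that of Spred2 (16.1), all in RPM per kilobase.

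**Figure D4:**
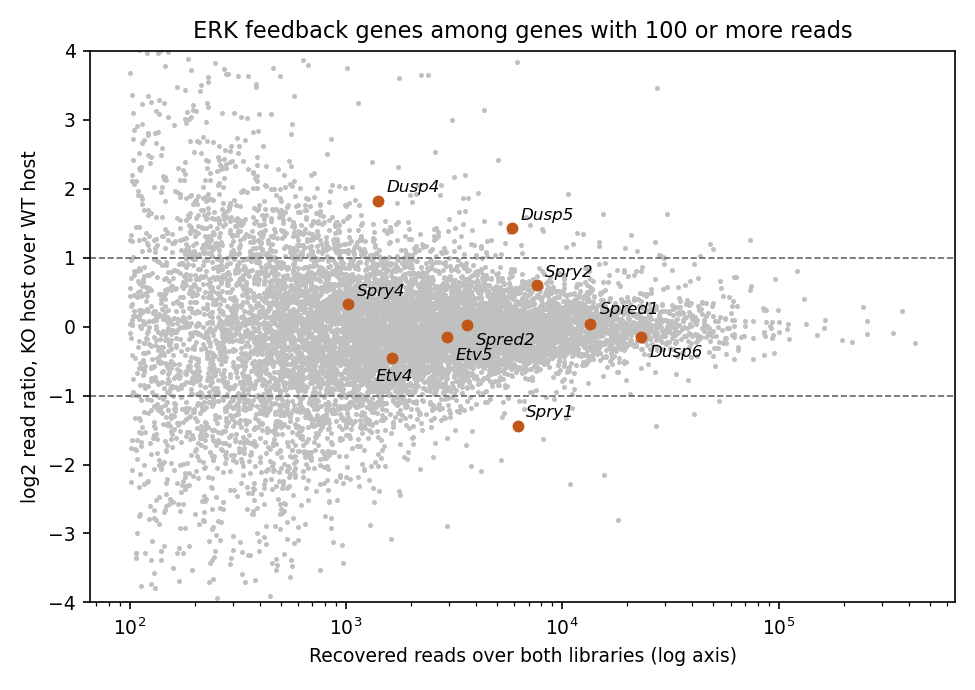
The log2 read ratio (knockout host over wild-type host) against recovered reads over both libraries (log axis) for 10652 genes with 100 or more reads (grey), with the 10 members in orange and dashed lines at 2-fold. Of these genes, 216 lie outside the vertical range drawn. The spread of ratios narrows with depth, and Dusp4, Dusp5 and Spry1 lie outside the dense part at their depth.

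Of 11 relatives of the members, 9 were listed, and 3 were higher by 2-fold or more, 0 were lower and 6 lay between, with a median log2 read ratio of 0.46. All 9 had 1000 or more reads. Among all genes at that depth, 2.84% were higher and 3.92% were lower by 2-fold, with a median log2 read ratio of -0.05. All 3 higher relatives encode phosphatases that prefer JNK and p38 over ERK. Dusp8 had 787 and 1759 reads, a ratio of 2.49 (2.29 to 2.71), Dusp10 had 3641 and 7516 reads, a ratio of 2.30 (2.21 to 2.40), and Dusp16 had 543 and 1390 reads, a ratio of 2.85 (2.58 to 3.16). The ERK-selective Dusp7 was at 0.995 (0.954 to 1.04) and Dusp9 at 1.37 (1.26 to 1.49), while Dusp1, an immediate early phosphatase, was at 0.841. Il17rd (Sef), another feedback inhibitor of ERK signalling, was at 1.68 (1.58 to 1.79). Etv1, which completes the PEA3 group, had 9903 and 7727 reads, a ratio of 0.870, so all 3 PEA3 genes were below 1. The median over all genes was below 1 too, and 35.8% of genes with 1000 or more reads had a ratio as low as that of Etv1. The shared direction is therefore no result about the group. Spred3 was at 0.661. Of these genes, Dusp7, Dusp9, Dusp1, Il17rd and Spred3 fall outside the rule for named genes and were chosen after their values were seen.

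Other genes that ERK signalling induces were mixed too. Of 14 listed, 2 were higher by 2-fold or more, 2 were lower and 10 lay between, with a median log2 read ratio of 0.16. Among all genes with 100 or more reads, 8.40% were higher and 11.3% were lower. Of the 14, 12 had 1000 or more reads, a depth at which 2.84% of all genes were higher and 3.92% were lower. Fosl1, an AP-1 subunit stabilised by ERK, had 1671 and 4093 reads, a ratio of 2.73 (2.58 to 2.89), and Errfi1 (MIG6), a feedback inhibitor of the EGF receptor, had 8662 and 18202 reads, a ratio of 2.34 (2.28 to 2.40). Epha4, an ephrin receptor, was lower with 226 and 54 reads, and the adaptor gene Sh2b3 was lower with 742 and 214 reads, which is 3.11-fold (2.67 to 3.64). Hmga2, a chromatin protein with the most reads of this list, was at 1.61. Egr1, at 0.957, and Ccnd1, which encodes cyclin D1, at 0.935, were chosen after their values were seen.

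No gene of the cascade itself with 100 or more reads and reads in both libraries was past 2-fold. The 5 lists of adaptors, RAS proteins, RAS GTPase-activating proteins, RAF, MEK and ERK kinases with scaffolds, and kinases downstream of ERK hold 38 genes, and 36 had 100 or more reads with reads in both libraries. Of these 36, 0 were higher and 0 were lower by 2-fold, and their median log2 read ratio was -0.0012. Of the 36, 33 had 1000 or more reads, a depth at which 2.84% of all genes were higher and 3.92% lower, so a count of 0 is near the background and is no result about the cascade. The largest ratio was that of Sos2, an exchange factor for RAS, with 1324 and 2247 reads (1.89, interval 1.77 to 2.03). Among those with 1000 or more reads the smallest was that of Rras, a RAS relative, with 727 and 381 reads (0.584). Nf1, which encodes neurofibromin, the partner of the SPRED proteins, was at 0.750 and Braf at 1.41. Frs3, with 52 reads in the WT-host library, was listed at 0 in the other. Ksr2 went the other way, with 2 and 52.4 reads, and both genes had fewer than 100 reads in all.

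**Figure D5:**
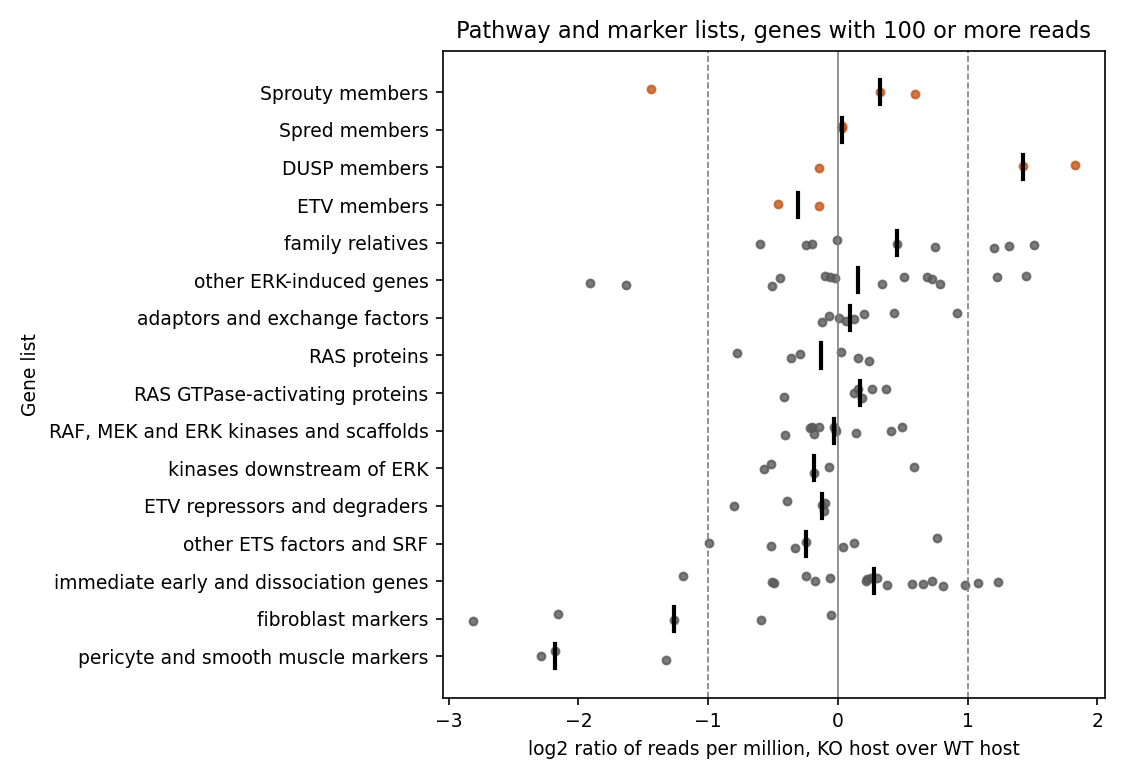
The log2 read ratio (knockout host over wild-type host) of each gene with 100 or more reads (points, members in orange) by gene list, with the median of each list as a black bar and dashed lines at 2-fold. The cascade lists lie between the dashed lines, and the phosphatase members, the relatives and the ERK-induced genes reach beyond them.

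Other features of the libraries moved beside these genes. A list of immediate early genes and other genes that tissue dissociation induces had a median log2 read ratio of 0.28 over 18 genes. Of these, 12 were above 0 and 2 were higher by 2-fold (Egr2 at 2.12 and Egr3 at 2.35 as ratios). The heat shock gene Hspa1b was the 1 lower by 2-fold, at 0.436. All 18 had 1000 or more reads, a depth at which 2.84% of all genes were higher, 3.92% were lower and the median was -0.05. The summed level of these 18 genes was 11415 and 14468 RPM, and 3 of them, Egr1, Ier2 and Dusp1, are also in the lists above. The summed fibroblast markers and the summed pericyte markers were lower in the KO-host library, as Spry1 was, though not every marker was. The 5 listed fibroblast markers summed to 2058 and 818 RPM, with 3 lower by 2-fold, among them Col1a1 with 16111 and 2059 reads. The largest parts of that sum were Col3a1 (1136 and 474 RPM) and Col1a1 (618 and 88.1 RPM). Pdgfra, on the same list, hardly differed, with 5834 and 5056 reads, a ratio of 0.966. The 5 listed pericyte and smooth muscle markers summed to 423.6 and 93.4 RPM. All 3 of these with 100 or more reads in total and reads in both libraries were lower, with Pdgfrb at 9206 and 1691 reads, while the other two went opposite ways. Cspg4 had 190 reads in the WT-host library and was listed at 0 in the other, and Abcc9 had 1 and 55.7 reads. The part of dissociation or of stromal cells in the values of Dusp4, Dusp5 and Spry1 was not tested. In bulk RNA, fewer cells of a type and less RNA per cell cannot be told apart.

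Markers of leukocytes were low in both libraries and mesenchymal markers were high. The 6 listed leukocyte markers summed to 9.70 and 12.6 RPM, with Ptprc, which encodes CD45, at 46 and 64 reads. The 6 mesenchymal markers summed to 9826 and 9316 RPM with 0 past 2-fold. All 6 had 1000 or more reads, a depth at which 2.84% of all genes were higher and 3.92% were lower. The count of 0 is therefore near the background. Their log2 read ratios ran from -0.66 to 0.53, with 1 above 0 and 5 below. The 5 epithelial markers summed to 196.4 and 299.9 RPM, and all 5 had a ratio above 1 (median log2 read ratio 0.74). Epcam and Krt19 were higher by 2-fold, where 8.40% of all genes with 100 or more reads were. At 1.5-fold, 4 were higher, where 15.7% of those genes were. The 3 listed endothelial markers summed to 18.3 and 14.2 RPM and went both ways, with Plvap at 348 and 58 reads, Cdh5 at 1 and 146, and Pecam1 between the 2-fold limits. Mtdh had 28376 and 23130 reads, a ratio of 0.909, where the tumour cells carry the gene in both libraries.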

How the data were processed

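The authors deposited 1 table of log2 values for 2 RNA-seq libraries of CD45-negative tumour cells, described by its name as log2(FPKM + 1). STAR 2.7.8a, Partek and mm39 are named in the submitters' processing notes. The sources used here do not give the annotation release, the strand setting or how reads with several matches were treated. The deposited length equals stop minus start in 100% of rows, so FPKM divides by the whole gene span, introns included, and the added 1 hides part of the difference for genes with a long span, such as Spred2. It matched the inclusive GENCODE M21 span in 12446 of 12690 genes, so the printed ends are the deposited stops less 1.

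In each column the low values are spaced by a constant step worth 1 read, and from it the depth came to 26069375 reads (WT-host library) and 23381849 reads (KO-host library). The share of values below 1000 reads that lay within 0.1 of a whole number was 84.9% and 83.4%, and the recovery was checked on simulated tables. Fractional reads were rounded for intervals. Reads were scaled to 1000000 (RPM). Ratio intervals are conditional binomial (Clopper-Pearson), level intervals are exact Poisson, and intervals for a change in the ratio of 2 genes use the normal approximation to the log of that ratio (Poisson variances). All cover counting error only, since without molecular identifiers PCR copies are counted as separate reads. Genes listed at 0 have no ratio.

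No test was run, since each group has 1 library. The members and lists were chosen with earlier results of these data known. Genes named from a list are those past 2-fold, the 2 with the largest ratio in size and the 1 with most reads, among genes with 100 or more reads; 1 gene that this takes is not reported here. In GENCODE M21 (GRCm38), Spry1, Spry4 and Dusp5 overlap genes on the opposite strand (by 710 bases for Spry1 and 547 for Dusp5), whose reads cannot be told apart without strand. Python 3.11.15, scipy 1.17.1 and pandas 2.3.3 were used. Alternatives were other scalings, filters and pseudocounts.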

Additional observations from a re-analysis of the deposited data

How the results depend on the processing

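The counts of members past 2-fold (2 higher, 1 lower) and past 1.5-fold (3 higher, 1 lower) were the same under the median-ratio, upper-quartile and quantile scalings, without mitochondrial genes in the total, with no filter on reads and with 1000 or more reads. When only genes with whole reads in both libraries were kept, 8 members were left and the counts of lower members were 0 at both sizes, because Spry1, at 4690.11 reads, was 0.11 from a whole number and dropped out. The median log2 read ratio of the members was then 0.18, and under the other alternatives it ran from 0.028 to 0.079. On the deposited scale, 0 members were higher by 1 or more with 5 added in place of 1, and 1 was among genes whose mean log2 was at least 3, a filter that leaves 4 members. Of 48 recalculated ratios of single members, 46 stayed within the counting interval and 0 changed direction among those past 2-fold. The other two were both of Dusp6, at -0.10 with the median ratio and -0.20 with quantile scaling (log2). Scaling moved the median of all genes by at most 0.05 (log2). No paired analysis was possible because each group has 1 library. Depth limits Spry4 and Dusp4 most, with 483 and 336 reads in the WT-host library.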

Other observations

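Transcripts of genes whose proteins act on the Sprouty and ETV proteins were compared by the same size rules. Of 8 Sprouty partners and regulators, 7 lay between the 2-fold limits and 1 was lower. Among all genes with 100 or more reads 11.3% were lower by 2-fold, so 1 of 8 is near the background. Nedd4, a ubiquitin ligase that targets Sprouty proteins, had 56159 and 38708 reads, a ratio of 0.768, and Cblb, of the CBL ligase family, was at 1.35. Tesk1, a kinase that binds Sprouty proteins, had 538.2 and 16.2 reads, which are not whole numbers, so this value is uncertain. All 5 repressors and degraders of ETV proteins were below 1 and 0 passed 2-fold. The median log2 read ratio of all genes with 100 or more reads was also below 0, at -0.06. By 2-fold, 8.40% of those genes were higher and 11.3% were lower, so 0 of 5 is near the background. The largest of the 5 differences was that of Det1, a part of the COP1 ubiquitin ligase that degrades ETV proteins, with 339 and 175 reads (0.576). Atxn1l, a partner of the repressor CIC, was at 0.763.

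Other ETS factors and SRF had a median log2 read ratio of -0.24 over 7 genes, and 0 were past 2-fold. Among all genes with 100 or more reads the median was -0.06, with 8.40% higher and 11.3% lower by 2-fold, so the count of 0 is no result about this list. Ets1 was at 1.70 with 3249 and 4941 reads. Elk1, an ETS partner of SRF, was just inside the limit with 519 and 234 reads, a ratio of 0.503 (95% counting interval 0.429 to 0.588). Of 11 FGF receptors and ligands only 4 were listed. Fgfr1, the receptor with most reads, was at 0.953, Fgfrl1 at 0.716, and Fgf2 was lower with 486.3 and 80 reads. The Fgf2 ratio was 0.183 (0.143 to 0.233), and its reads in the WT-host library are not a whole number, so this value is uncertain too. Fgf1, chosen after its values were seen, had 60 reads in the KO-host library and was listed at 0 in the WT-host library.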
